A study of Mus musculus with 12 samples.

Results

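The genes described are 10 regulators of the G1 phase of the cell cycle in mouse heart, out of 56748 genes in the deposited expression table. They are the D-type cyclins Ccnd1, Ccnd2 and Ccnd3, the kinases Cdk4 and Cdk6, the inhibitors Cdkn1a, Cdkn1b and Cdkn2c, and the pocket proteins Rb1 and Rbl1. Members were matched by gene symbol, each to 1 row of the table, and all 10 passed the filter on low values. RNA was sequenced from whole hearts in 12 libraries, 3 for each of 4 groups: Csrp3 knockout at postnatal day 21 (P21), wild type at P21, Csrp3 knockout at postnatal day 1 (P1) and wild type at P1. Csrp3 encodes muscle LIM protein of the sarcomere's Z disc, and the series title names it as a modulator of cardiomyocytes starting mitosis. The labels give no strain, sex, allele or litter. They do not say that the libraries of a group came from separate animals, so p-values reflect variation among the samples as deposited, part of which may be technical.

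D-type cyclins bind Cdk4 or Cdk6, and the active kinases phosphorylate the pocket proteins, which releases E2F transcription factors and starts the genes of DNA replication. Inhibitors of the Cip/Kip family (Cdkn1a, which encodes p21, and Cdkn1b, which encodes p27) act on cyclin-bound kinases, and INK4 proteins such as p18, from Cdkn2c, bind Cdk4 and Cdk6 directly. Mouse heart muscle cells still divide around birth and leave the cell cycle in the first postnatal weeks.

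Libraries held 9.67 to 15.9 M (megareads) in genes. Values are FPKM, the authors' fragment numbers divided by gene length and by scaled depth, so levels can be compared between genes. Changes are differences of log2(FPKM + 0.5), tested with limma over 13537 genes with Benjamini-Hochberg adjustment, and a gene was called at an adjusted p under 0.05. Heart muscle markers were present in every library, with 7 of 7 above 0 and a summed FPKM of 13235 to 29122 at P21 and of 5613 to 7552 at P1. Csrp3 RNA was also present in every library, at 671, 1112 and 926 FPKM in knockout P21 hearts, against 1068, 1397 and 572 FPKM in wild-type P21 hearts. P1 levels were 168, 94.3 and 147 FPKM in knockout hearts, against 183, 179 and 238 FPKM in wild-type hearts, and the difference was not called at either age (adjusted p = 0.920 at P21 and 1 at P1). At P1 the genotypes did not overlap for Csrp3, and at P21 they did. The FPKM of a whole gene does not show which exons its reads come from, so knockout here means labelled as knockout. Wild-type P21 libraries 1 and 2 had the fewest reads (10.2 and 9.67 M). Their library names are also the only ones that end in R, a mark the labels do not explain. Correlations across genes were 0.909 to 0.926 within the wild-type P21 group, against 0.935 to 0.982 within the other groups. The wild-type P21 range covers every pair of its libraries, so it does not set libraries 1 and 2 apart from the remaining library. Where a member's call with age in wild type was lost without libraries 1 and 2, this is stated. The P21 genotype differences of Ccnd1 and Cdkn1a are given with and without these 2 libraries. Leaving both out keeps 1 wild-type P21 library, whose spread is then taken from the other groups.

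All 10 members were detected in all 12 libraries. Mean FPKM over the 12 libraries was highest for Cdk4 (32) and Cdkn1a (20.1). It lay between 8.78 and 13.7 for Cdkn1b, Ccnd3, Ccnd1, Ccnd2 and Cdkn2c, and was lowest for Rb1 (3.22), Cdk6 (2.87) and Rbl1 (1.45). Rbl1 was also the member with the fewest reads, 10 to 351 per library.

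Promoter sequence was available for 7 of the 10 members in RefSeq windows of GRCm38.p6, each reaching from 250 bases before to 50 bases after a gene's start. Ccnd1, Ccnd2 and Rb1 had none. Each window was searched on both strands for the E2F words TTTCCCGC, TTTCGCGC, TTTGCCGC and TTTGGCGC, and for the cell cycle homology region TTTGAA, an element of genes that peak late in the cycle. Rbl1 was the 1 member with an E2F word, which 2.26% of all 32851 windows and 2.60% of the 27025 genes with a window held. TTTGAA was found in 0 members, against 17.9% of windows and 20.2% of genes. The 250 bases before the start are shown for Rbl1 (chr2:157204535-157204784, minus strand) and for Cdk4 (chr10:127063285-127063534, plus strand), because both genes were called lower at P21 in both genotypes and only the Rbl1 window holds a match. Capitals mark the E2F word, 18 to 11 bases before the start.
Rbl1: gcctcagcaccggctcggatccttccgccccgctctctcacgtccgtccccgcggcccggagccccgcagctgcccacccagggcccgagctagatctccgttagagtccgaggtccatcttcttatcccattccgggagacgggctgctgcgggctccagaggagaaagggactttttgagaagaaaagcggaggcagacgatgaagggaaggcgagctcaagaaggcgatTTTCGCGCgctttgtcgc
Cdk4: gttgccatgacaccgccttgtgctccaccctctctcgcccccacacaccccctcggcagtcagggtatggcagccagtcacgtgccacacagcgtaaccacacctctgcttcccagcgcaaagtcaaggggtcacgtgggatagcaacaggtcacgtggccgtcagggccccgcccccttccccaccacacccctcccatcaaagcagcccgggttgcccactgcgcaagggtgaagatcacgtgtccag
A match is a description of these letters and says nothing of binding in these hearts.

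The comparison of P21 with P1 describes how the G1 regulators differ between the newborn and the weanling heart. In wild type, 8 of 10 members were lower at P21, 1 was higher (Cdkn1a) and 1 was not called (Rb1). Over all genes tested, 23.3% were called lower and 21.5% higher in wild type. In knockout hearts 6 of 10 were lower and 0 were higher, against 13.2% and 11.8% of all genes. The ages did not overlap for 9 members in wild type, where 51.9% of all genes had ages without overlap, and for 5 members in knockout, where that share was 47.4%. The median change of the members was -0.95 in knockout and -1.25 in wild type, against -0.02 and -0.04 over all genes. In these bulk samples, fewer cells of a type and less RNA per cell cannot be told apart.

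**Figure D1:**
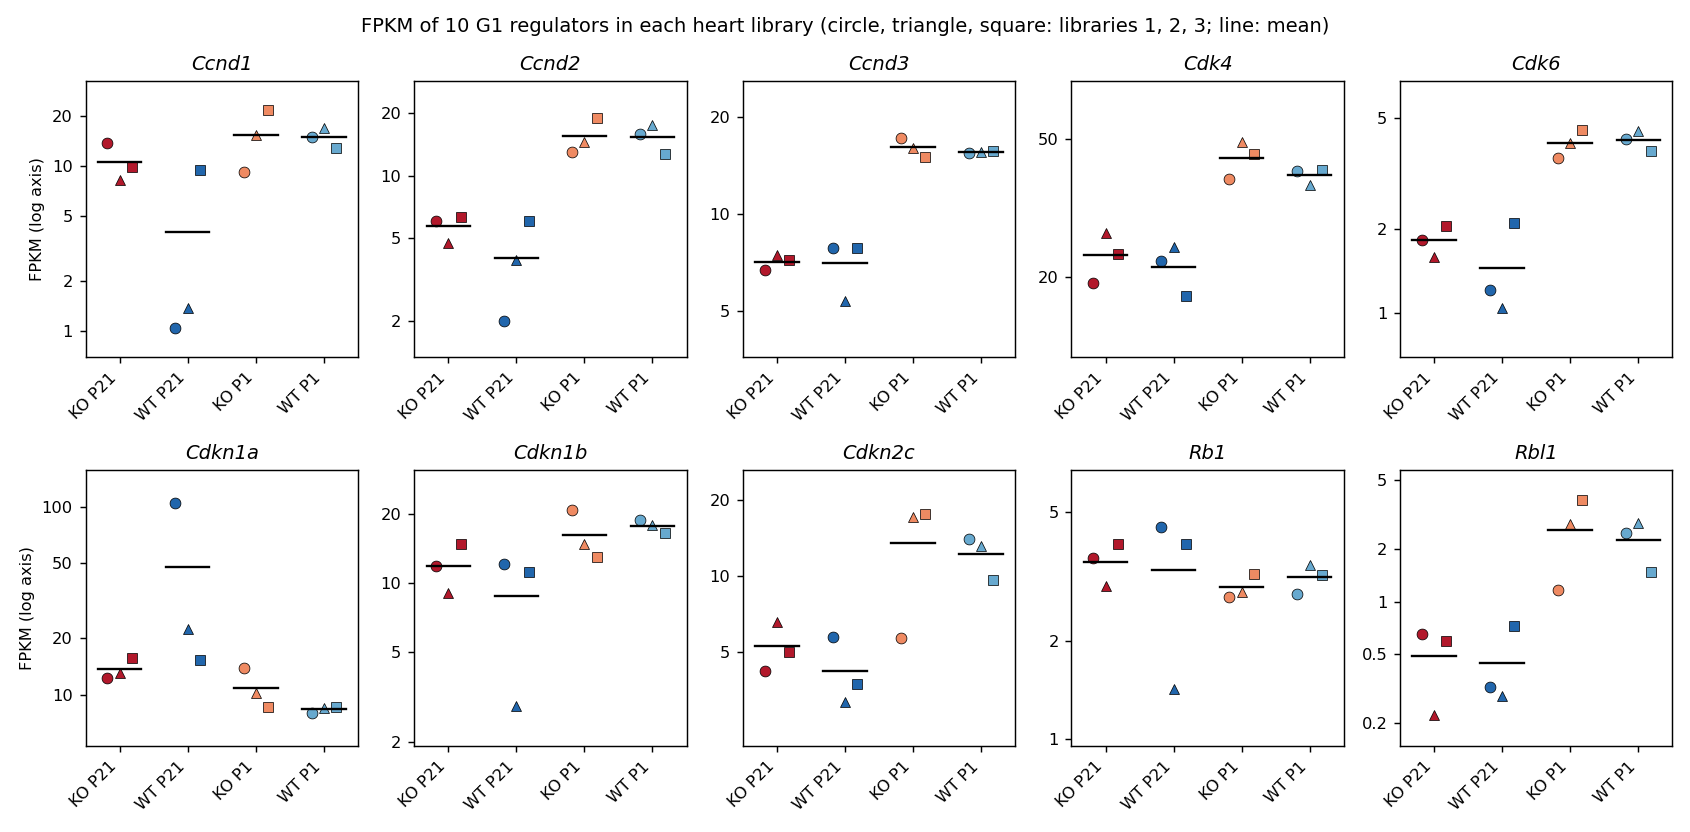
FPKM (log axis, with a scale of its own for each gene) of the 10 members in each library, by group. Symbols mark libraries 1 to 3 and lines mark means; Ccnd2, Ccnd3, Cdk4, Cdk6 and Rbl1 separate the ages in both genotypes, while Cdkn1a in wild-type P21 library 1, at 105 FPKM, stands far above every other library.

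Ccnd1 encodes cyclin D1, the D-type cyclin most closely tied to growth factor signals. The table places it on chromosome 7 from 144483668 to 144493662, minus strand (ENSMUSG00000070348). Its FPKM was 13.8, 8.16 and 9.78 in knockout P21 hearts, against 1.04, 1.38 and 9.46 in wild-type P21 hearts. In P1 hearts it was 9.21, 15.2 and 21.7 in knockout hearts, against 15.0, 16.8 and 12.8 in wild-type hearts. Wild-type P21 libraries 1 and 2 were far below all others, and library 3 of that group lay within the range of the knockout P21 hearts. Cyclin D1 RNA was lower at P21 in wild type, by a log2 change of -2.31 (SE 0.57, adjusted p = 0.0074), with no overlap of the ages. With wild-type P21 library 3 alone in its group, the change was -0.62 and was not called (adjusted p = 0.307). In knockout hearts the ages overlapped and the change was -0.47 (SE 0.57, adjusted p = 0.588).

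Ccnd2 encodes cyclin D2, which is known in mouse for driving DNA synthesis in heart muscle cells when overexpressed. The table places it on chromosome 6 from 127102125 to 127129156, minus strand (ENSMUSG00000000184). It had 6.05, 4.75 and 6.30 FPKM in knockout P21 hearts, against 2.00, 3.94 and 6.05 FPKM in wild-type P21 hearts. Knockout P1 hearts had 13.1, 14.5 and 19.0 FPKM and wild-type P1 hearts 15.9, 17.6 and 12.7 FPKM. Every P21 library lay below every P1 library, and the genotypes overlapped at both ages. The log2 change with age was -1.36 (SE 0.30, adjusted p = 0.0072) in knockout and -1.92 (SE 0.30, adjusted p = 0.00063) in wild type. Without wild-type P21 libraries 1 and 2 the wild-type change was -1.27 (adjusted p = 0.0093).

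Cyclin D3, from Ccnd3, is known to rise as skeletal muscle cells differentiate. The gene lies on chromosome 17 from 47815976 to 47910616, plus strand (ENSMUSG00000034165). Its level was 6.68, 7.44 and 7.21 FPKM in knockout P21 hearts, against 7.85, 5.36 and 7.84 FPKM in wild-type P21 hearts. P1 levels were 17.3, 16 and 15.0 FPKM in knockout hearts, against 15.5, 15.6 and 15.8 FPKM in wild-type hearts. The ages did not overlap, and wild-type P21 library 2 was the lowest of all. The log2 change was -1.13 (SE 0.16, adjusted p = 0.00067) in knockout and -1.12 (SE 0.16, adjusted p = 0.00040) in wild type, which is 2.18-fold and 2.17-fold lower at P21.

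The makeup of the D-type cyclin RNA differed between libraries as well as its amount. Their summed FPKM was 20.3 to 26.5 in knockout P21 hearts, against 10.9, 10.7 and 23.4 in wild-type P21 libraries 1, 2 and 3. At P1 it was 39.6 to 55.7 in knockout and 41.2 to 49.99 in wild-type hearts. Ccnd1 made up 40.1% to 51.9% of the sum in knockout P21 hearts, against 9.56%, 12.9% and 40.5% in the wild-type P21 hearts. At P1 its share was 23.3% to 38.9% in knockout and 31.0% to 33.7% in wild-type hearts. In wild-type P21 libraries 1 and 2 Ccnd3 was the main D-type cyclin, at 72.1% and 50.2% of the sum. Its share was 25.2% to 36.6% in knockout P21 hearts, 27.0% to 43.7% in knockout P1 hearts and 31.1% to 38.2% in wild-type P1 hearts, and it was also the largest of the 3 shares in knockout P1 libraries 1 and 2 and wild-type P1 library 3.

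**Figure D2:**
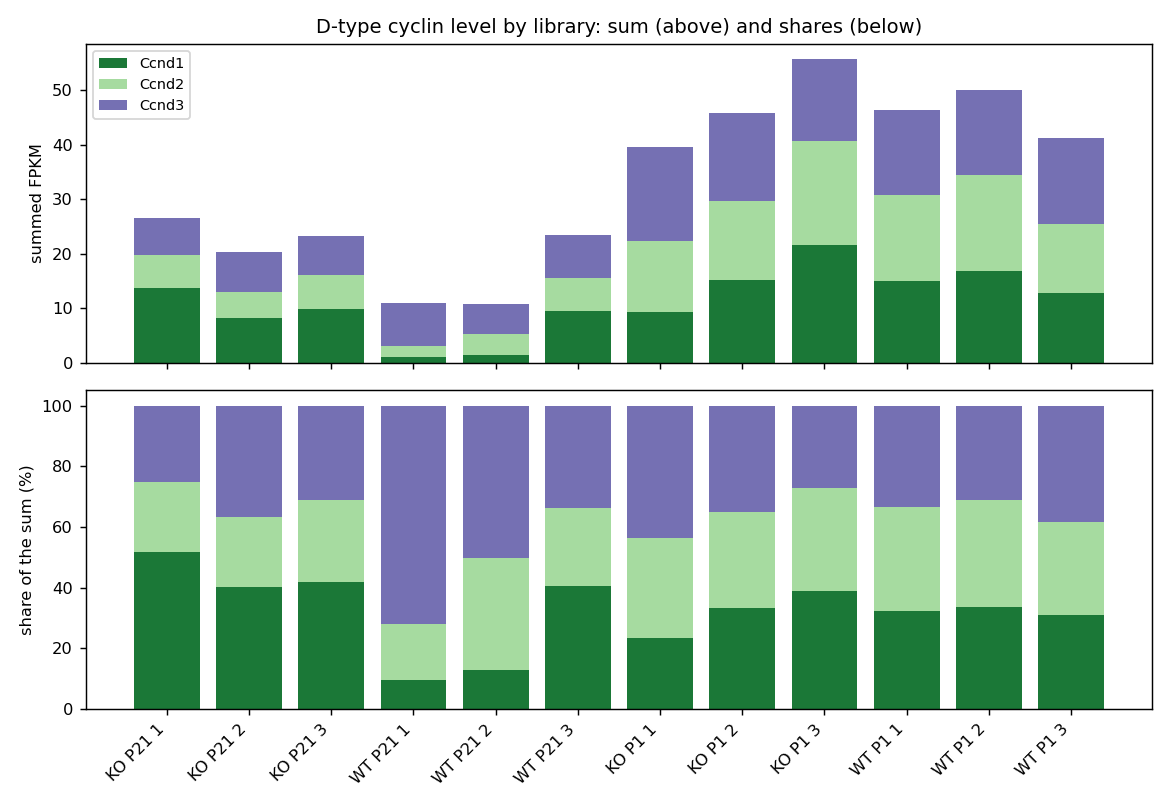
Summed FPKM of Ccnd1, Ccnd2 and Ccnd3 in each library (upper panel) and the share of each in that sum in percent (lower panel). The sum is lower in all 6 P21 libraries, and the Ccnd1 share is 9.56% and 12.9% in wild-type P21 libraries 1 and 2.

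Both catalytic partners of the D-type cyclins were lower at P21. Cdk4, on chromosome 10 from 126899403 to 126903789, plus strand (ENSMUSG00000006728), had 19.2, 26.7 and 23.3 FPKM in knockout P21 hearts, against 22.2, 24.4 and 17.5 FPKM in wild-type P21 hearts. Knockout P1 hearts had 38.2, 49.0 and 45.1 FPKM and wild-type P1 hearts 40.5, 36.7 and 40.6 FPKM. The highest P21 library was below the lowest P1 library, and the genotypes overlapped at each age. Cdk4 changed by -0.93 (SE 0.19, adjusted p = 0.0043) in knockout and by -0.87 (SE 0.19, adjusted p = 0.0033) in wild type on the log2 scale.

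Cdk6, on chromosome 5 from 3391485 to 3581008, plus strand (ENSMUSG00000040274), had 1.82, 1.59 and 2.05 FPKM in knockout P21 hearts, against 1.21, 1.04 and 2.09 FPKM in wild-type P21 hearts. Its P1 values were 3.60, 4.06 and 4.52 FPKM in knockout and 4.21, 4.51 and 3.79 FPKM in wild-type hearts. Wild-type P21 libraries 1 and 2 were again the lowest, and library 3 was the highest of the P21 hearts. The log2 change was -0.97 (SE 0.21, adjusted p = 0.0061) in knockout and -1.30 (SE 0.21, adjusted p = 0.00072) in wild type. Without wild-type P21 libraries 1 and 2 the wild-type change was -0.85 (adjusted p = 0.019). Cdk4 was the more abundant kinase in every library, at 89.1% to 95.9% of the FPKM summed over the pair.

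**Figure D3:**
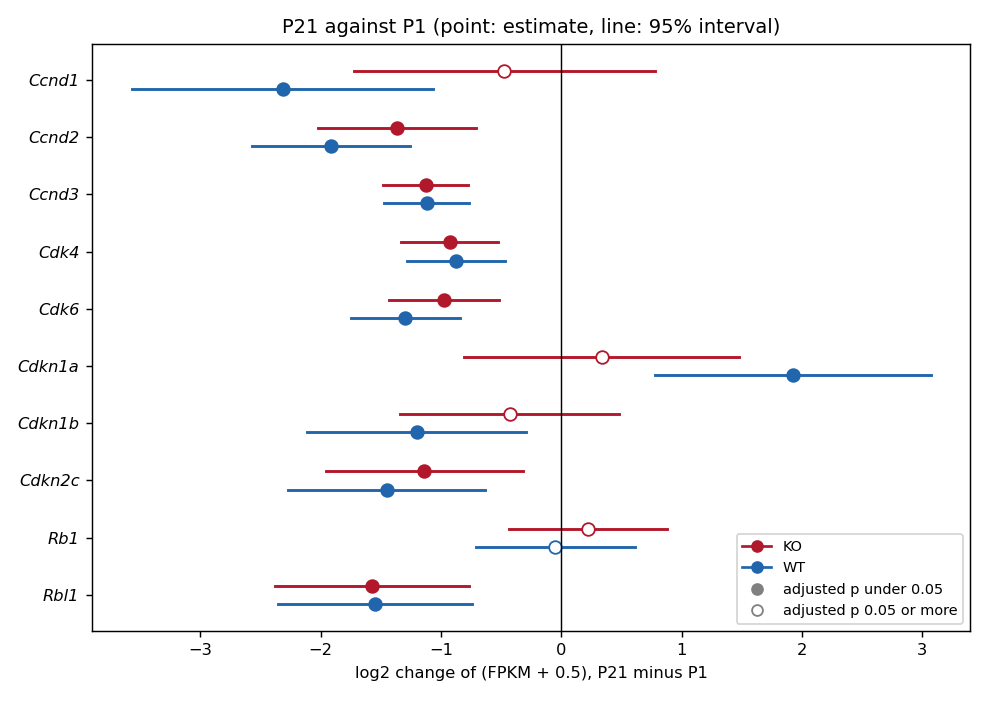
Log2 change of FPKM + 0.5 at P21 against P1 in knockout (red, upper of each pair) and wild type (blue, lower), with 95% intervals from limma. Filled points passed an adjusted p of 0.05; they are on the left of 0 for every called member except Cdkn1a in wild type, at 1.92.

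Among the inhibitors, Cdkn1a was the only member called higher at P21, and it was called in wild type. This p53 target encodes p21 and lies on chromosome 17 from 29309950 to 29319701, plus strand (ENSMUSG00000023067). Its FPKM was 12.3, 13.1 and 15.6 in knockout P21 hearts, against 105, 22.2 and 15.3 in wild-type P21 hearts. At P1 it was 13.8, 10.2 and 8.62 in knockout hearts, against 7.98, 8.45 and 8.64 in wild-type hearts. Wild-type P21 library 1 was by far the highest, and wild-type P21 library 3 fell within the range of the knockout P21 hearts. The change with age was 1.92 (SE 0.52, adjusted p = 0.012) in wild type without overlap of the ages, and 0.34 (SE 0.52, adjusted p = 0.682) in knockout with overlap. Without wild-type P21 library 1 the wild-type change was 1.10 (adjusted p = 0.0040), and without libraries 1 and 2 it was 0.84 (adjusted p = 0.036). Rescaling the values to TPM gave 0.82 (adjusted p = 0.181), so this call depended on the scale, although the value was still 1.84 above the median of all genes at that scale.

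Cdkn1b encodes p27, an inhibitor of cyclin-bound Cdk2 that also helps cyclin D and Cdk4 assemble. It lies on chromosome 6 from 134897364 to 134902476, plus strand (ENSMUSG00000003031). Knockout P21 hearts had 11.8, 9.07 and 14.9 FPKM, against 12.1, 2.89 and 11.2 FPKM in wild-type P21 hearts. Knockout P1 hearts had 20.9, 14.8 and 13 FPKM and wild-type P1 hearts 18.9, 18 and 16.5 FPKM. Wild-type P21 library 2 alone was below 9 FPKM. The change with age was -0.43 (SE 0.42, adjusted p = 0.490) in knockout, where the ages overlapped, and -1.20 (SE 0.42, adjusted p = 0.035) in wild type. Without wild-type P21 library 2 the wild-type change was -0.59 and was not called (adjusted p = 0.069). The call was also lost without wild-type P1 library 1, 2 or 3, at -1.16, -1.19 and -1.25 (adjusted p = 0.090, 0.084 and 0.062). It was lost too without both wild-type P21 libraries 1 and 2. Over 23 alternatives the wild-type change ran from -2.25 to -0.59.

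The INK4 inhibitor gene Cdkn2c, on chromosome 4 from 109518073 to 109524386, minus strand (ENSMUSG00000028551), moved down with age. It had 4.21, 6.59 and 5.01 FPKM in knockout P21 hearts, against 5.72, 3.18 and 3.74 FPKM in wild-type P21 hearts. At P1 it had 5.68, 17.1 and 17.5 FPKM in knockout hearts, against 14.0, 13.1 and 9.59 FPKM in wild-type hearts. Knockout P1 library 1 was within the P21 range, so the ages overlapped in knockout but not in wild type. The change was -1.14 (SE 0.37, adjusted p = 0.045) in knockout and -1.45 (SE 0.37, adjusted p = 0.0093) in wild type. The wild-type call was lost without wild-type P21 libraries 1 and 2. Over 23 alternatives the wild-type change ran from -2.48 to -1.29. The knockout call was lost when either of the higher P1 libraries was left out, at -0.89 without library 2 (adjusted p = 0.167) and -0.88 without library 3 (adjusted p = 0.164). The call was also lost without any 1 of the knockout P21 libraries, at -1.0 without library 1 (adjusted p = 0.137), -1.30 without library 2 (adjusted p = 0.058) and -1.11 without library 3 (adjusted p = 0.096). Leaving out wild-type P1 library 1, 2 or 3 left the value at -1.14 and gave adjusted p of 0.061, 0.063 and 0.055.

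Within each genotype the summed inhibitor RNA was lower at P21 in all but wild-type library 1, and the summed kinase RNA was lower by more. Across genotypes, knockout P21 library 3, at 35.5, was above the lowest wild-type P1 library, at 34.8. Of the 3 inhibitors, Cdkn1a alone had higher means at P21. The FPKM summed over Cdkn1a, Cdkn1b and Cdkn2c was 28.3 to 35.5 in knockout P21 hearts, against 123, 28.3 and 30.2 in wild-type P21 libraries 1, 2 and 3. At P1 it was 39.1 to 42.1 in knockout and 34.8 to 40.8 in wild-type hearts. Cdk4 plus Cdk6 summed to 20.99 to 28.3 FPKM in knockout P21 hearts, against 19.6 to 25.5 FPKM in wild-type P21 hearts. The kinase sum at P1 was 41.8 to 53.1 FPKM in knockout and 41.2 to 44.7 FPKM in wild-type hearts. The inhibitor sum was 1.35, 1.02 and 1.40 times the kinase sum in knockout P21 hearts, against 5.25, 1.11 and 1.54 times in wild-type P21 hearts. At P1 the ratio was 0.965, 0.793 and 0.788 in knockout hearts, against 0.912, 0.958 and 0.783 in wild-type hearts. For this ratio all 6 P21 libraries were above all 6 P1 libraries, and the genotypes overlapped at both ages. Cdkn1a was 43.4% to 45.5% of the inhibitor sum in knockout P21 hearts and 50.7% to 85.4% in wild-type P21 hearts. At P1 it was 22.0% to 34.1% in knockout and 19.6% to 24.8% in wild-type hearts.

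The pocket proteins differed from each other. Rb1, the retinoblastoma gene, on chromosome 14 from 73421113 to 73563262, minus strand (ENSMUSG00000022105), had 3.61, 2.96 and 3.98 FPKM in knockout P21 hearts, against 4.51, 1.42 and 4.0 FPKM in wild-type P21 hearts. Its P1 values were 2.73, 2.83 and 3.22 FPKM in knockout and 2.79, 3.43 and 3.21 FPKM in wild-type hearts. The 4 groups overlapped, and wild-type P21 library 2, at 1.42 FPKM, was below the rest. The change with age was 0.22 (SE 0.30, adjusted p = 0.631) in knockout and -0.05 (SE 0.30, adjusted p = 0.906) in wild type, where the 95% interval ran from -0.71 to 0.61.

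Rbl1 encodes p107, a pocket protein whose gene is itself a target of E2F, and its promoter with the E2F word is shown above. The table places it on chromosome 2 from 156987813 to 157046454, minus strand (ENSMUSG00000027641). It had 0.653, 0.221 and 0.591 FPKM in knockout P21 hearts, against 0.323, 0.285 and 0.725 FPKM in wild-type P21 hearts. At P1 it had 1.16, 2.81 and 3.83 FPKM in knockout hearts, against 2.48, 2.85 and 1.48 FPKM in wild-type hearts. Every P21 library lay below every P1 library. The change was -1.57 (SE 0.37, adjusted p = 0.0100) in knockout and -1.55 (SE 0.37, adjusted p = 0.0061) in wild type, and the pseudocount understates it at these levels. On reads recovered from the table, limma's voom method gave -2.28 (adjusted p = 0.022) in knockout and -2.26 (adjusted p = 0.020) in wild type. Without wild-type P21 libraries 1 and 2 the wild-type change was -1.14 and was not called (adjusted p = 0.137). Rb1 was 5.52 to 13.4 times Rbl1 in knockout P21 hearts and 4.98 to 13.9 times in wild-type P21 hearts, on the FPKM scale. At P1 that ratio was 0.840 to 2.36 in knockout hearts and 1.13 to 2.16 in wild-type hearts.

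The group means put both P1 groups above both P21 groups for 8 members, and below them for Cdkn1a and Rb1. For Ccnd2, Ccnd3, Cdk4 and Rbl1 the order from high to low was knockout P1, wild-type P1, knockout P21 and wild-type P21, and for Cdk6 the first pair was exchanged. Of the neighbours in these orders, the P1 group with the lower mean and the knockout P21 group did not overlap, while the genotypes at an age did. Cdkn2c had the same order as Ccnd2, with the wild-type P1 and knockout P21 groups apart, although knockout P1 library 1 reached down into the P21 range. For Ccnd1, Cdkn1a, Cdkn1b and Rb1 all neighbouring groups overlapped.

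The scale bears on the age comparison. Rescaling to TPM moved the median change of all genes to -0.62 in knockout and -1.02 in wild type. Under that scale 631 genes were called higher and 5386 lower in knockout, and 749 higher and 8831 lower in wild type. At the deposited scale the calls were 1599 higher and 1789 lower in knockout, and 2917 higher and 3160 lower in wild type. Rescaling without mitochondrial genes and the 20 most abundant genes moved that median to -0.45 in knockout and -0.90 in wild type. Relative to the median of all genes, 8 members were below it under TPM in each genotype, against 8 in knockout and 9 in wild type at the deposited scale. Rb1 in wild type was called lower under TPM at -0.98 (adjusted p = 0.039), close to the median of all genes.

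Genes around the D-type cyclins were lower with age in some groups and not in others. The counts below stand beside all genes tested, of which 13.2% were lower and 11.8% higher in knockout. In wild type these shares were 23.3% and 21.5%. On the cyclin E/A and Cdk2 side of G1/S, 4 of 6 tested genes were called lower in knockout and 5 in wild type, with a median of -1.74 and -1.67. Ccna2, the S-phase cyclin A, changed by -3.69 in knockout and by -3.67 in wild type, and Ccne1, which encodes cyclin E1, by -2.13 in knockout and by -2.74 in wild type. Cks1b, an adaptor for the turnover of p27, changed by -1.77 in knockout and by -1.85 in wild type. Of the E2F factors and their partners, 3 of 10 were lower in knockout, and 5 were lower and 1 higher in wild type, where 0 were higher under TPM. E2f1, an activator of replication genes, changed by -3.18 in knockout and by -3.09 in wild type. E2f8, an atypical repressor, changed by -1.22 in knockout and by -1.80 in wild type, and E2f3, another activator, by -1.03 in knockout and by -1.64 in wild type. Their medians were -0.74 in knockout and -0.64 in wild type.

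Of 3 other inhibitors tested, 1 was lower in each genotype, Cdkn3, a phosphatase that acts on Cdk2, at -2.15 in knockout and -1.96 in wild type. The list's median was -0.89 in knockout and -0.01 in wild type, and Cdkn2a and Cdkn2b were below the filter. In the list of Rbl2 and the MuvB core, which joins pocket proteins to repress cell cycle genes, 2 of 6 were lower and 1 was higher in knockout, and 2 were lower in wild type. These were Lin9 (-0.92 in knockout, -1.25 in wild type) and Rbbp4 (-0.98 in knockout, -1.13 in wild type), while Lin52 was higher in knockout at 0.93 and lost that call under TPM, at 0.41. None of the 3 genes of the Cdk-activating kinase was called by limma or voom in either genotype, and 0 had an unadjusted p under 0.05 in limma, against 37.8% of all genes in knockout and 53.0% in wild type. Under TPM, 2 of the 3 were called lower in knockout and 3 in wild type.

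The list of cyclin D turnover and upstream factors moved both ways, with 2 of 7 higher and 1 lower in knockout, and 2 higher and 3 lower in wild type. Fbxo31, a ubiquitin ligase subunit that targets cyclin D1, was higher by 1.74 in knockout and by 2.02 in wild type. Fbxw7, a ligase subunit for cyclin E and Myc, was higher by 0.89 in knockout. Under TPM Fbxo31 was still called higher, at 1.10 in knockout and 0.92 in wild type, while Fbxw7 was not, at 0.26 in knockout. Myc, a transcription factor that promotes growth and G1 entry, changed by -1.99 in knockout and by -2.44 in wild type, and Gsk3b, a kinase that marks cyclin D1 for export and breakdown, by -1.24 in wild type. The median of the list was -0.14 in knockout and -0.43 in wild type.

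Division markers, which read out S phase and mitosis, were lower at P21. All 12 mitosis genes were called lower in both genotypes, also under TPM, with a median of -3.03 in knockout and -3.10 in wild type. Ccnb2 (cyclin B2) changed by -3.41 in knockout and by -4.56 in wild type, and Cdk1, its kinase, by -3.55 in knockout and by -4.01 in wild type. The FPKM summed over all 12 mitosis genes was 6.04 to 7.02 in knockout P21 hearts, against 3.94 to 6.21 in wild-type P21 hearts. The P1 sums were 38.4, 153 and 165 in knockout hearts, against 131, 120 and 69.7 in wild-type hearts. The P1 library with the lowest sum was knockout library 1. Of the 6 P1 libraries it also had the lowest Ccnd1, Cdk6, Cdkn2c, Rb1 and Rbl1 and the highest Ccnd3, Cdkn1a and Cdkn1b. It was neither lowest nor highest for Ccnd2 and Cdk4. The part that the share of dividing cells has in these levels was not tested.

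**Figure D4:**
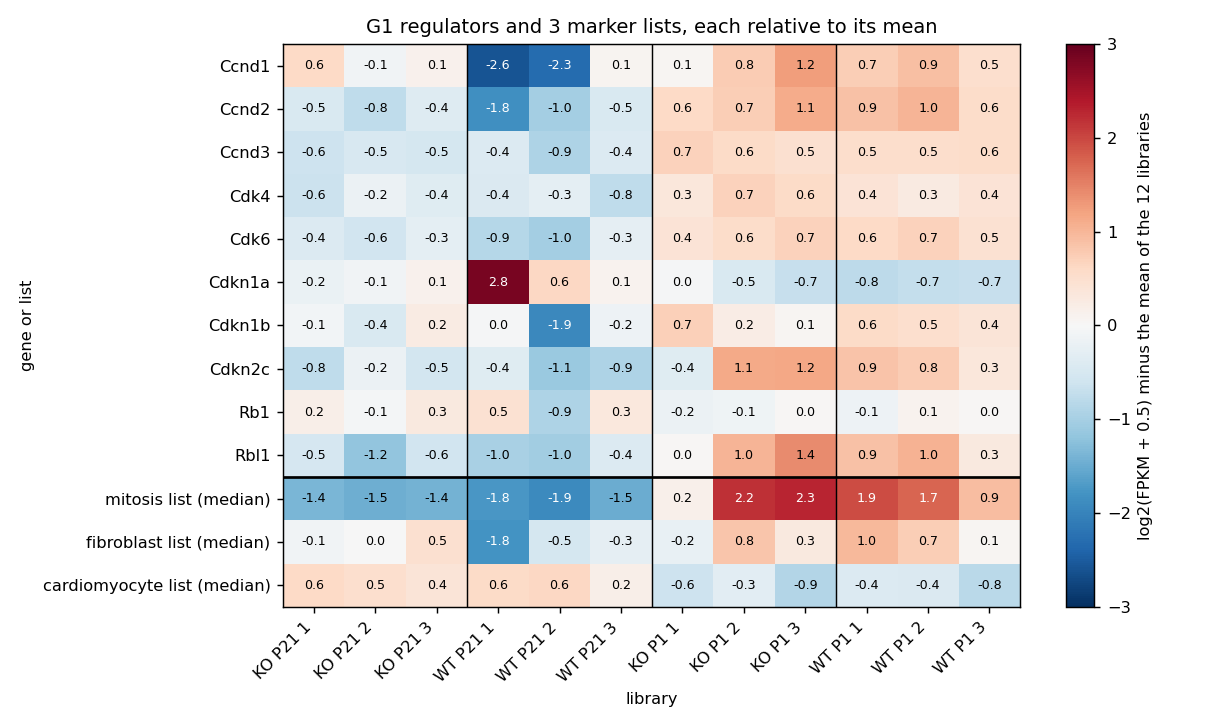
Log2(FPKM + 0.5) of each member, and the median over the genes of 3 marker lists, minus the mean of the 12 libraries (rows: genes or lists; columns: libraries). Wild-type P21 libraries 1 and 2 have the lowest Ccnd1, library 1 the highest Cdkn1a, and knockout P1 library 1 the lowest mitosis list at P1.

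Marker lists of heart cell types also held genes called with age. Over all genes tested, 11.8% were called higher and 13.2% lower in knockout, and 21.5% and 23.3% in wild type. Heart muscle markers were called higher at P21 in 4 of 7 in knockout and 5 of 7 in wild type. Fibroblast markers were split, with 2 higher and 1 lower of 7 in knockout and 1 higher and 4 lower in wild type. Macrophage markers were higher in 4 of 5 tested in each genotype, as were red cell markers. Endothelial markers were higher in 2 of 7 in each genotype, and smooth muscle and pericyte markers in 2 of 5 tested in knockout and 1 in wild type. Epicardial markers were lower in 4 of 6 in knockout and 5 of 6 in wild type. Of 4 lymphocyte and neutrophil markers tested, 3 were lower in knockout, and 1 was lower and 1 higher in wild type. Under TPM the heart muscle markers called higher numbered 1 in knockout and 2 in wild type, with 1 lower in wild type, and their median was 0.53 in knockout and -0.23 in wild type, so the wild-type direction turned with the scale. Macrophage markers called higher then numbered 2 in each genotype. At that scale 0 endothelial, smooth muscle or pericyte markers were called higher in either genotype, and 4 endothelial markers were lower in wild type. Red cell markers were still higher under TPM, in 4 of 5 in knockout and 3 of 5 in wild type. The part of cell makeup in the members' changes was not tested.

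The second question was whether the G1 regulators differ between Csrp3 knockout and wild-type hearts. At P21, 0 of 10 members were called by limma, where 0.0665% of all genes were, and 2 had an unadjusted p under 0.05 (Ccnd1 and Cdkn1a), as did 13.8% of all genes. Voom also called 0. The genotypes overlapped for all 10 members, while 12% of all genes had genotypes without overlap. The median change of the members was 0.24, against 0.00 over all genes, with 9 of 10 positive.

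Ccnd1 averaged 10.6 ± 2.88 FPKM in knockout P21 hearts and 3.96 ± 4.77 FPKM in wild-type P21 hearts (SD, n = 3 each). The log2 difference was 1.82 (SE 0.57, adjusted p = 0.242). Cdkn1a averaged 13.7 ± 1.75 FPKM in knockout P21 hearts and 47.4 ± 49.8 FPKM in wild-type P21 hearts (SD, n = 3 each), a log2 difference of -1.25 (SE 0.52, adjusted p = 0.326). Ccnd2, Cdkn1b and Cdk6 had differences of 0.56 (SE 0.30), 0.62 (SE 0.42) and 0.29 (SE 0.21), with adjusted p of 0.417, 0.507 and 0.534. The other 5 members differed by less than their standard errors. Across the members the 95% intervals reached from -2.40 (Cdkn1a) to 3.07 (Ccnd1), and the narrowest, that of Ccnd3, ran from -0.32 to 0.39.

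These P21 differences turned on the wild-type libraries. Without wild-type P21 library 3 the Ccnd1 difference was 2.67 (adjusted p = 0.0021) and that of Cdkn1a was -1.80 (adjusted p = 0.034), both called, while 1801 genes in all were called in place of 9. Without wild-type P21 libraries 1 and 2 the differences were 0.12 for Ccnd1 and -0.17 for Cdkn1a (adjusted p = 0.988 for both). Ccnd2 and Cdk6 turned to -0.09 and -0.17 in that case. Without wild-type P21 library 1 the Cdkn1a difference was -0.43 (adjusted p = 0.546). Without wild-type P21 library 2 the Cdkn1b difference was 0.01 (adjusted p = 0.998).

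Fibroblast markers were lower in sum in all 3 wild-type P21 libraries than in the knockout P21 hearts, library 3 included. Their summed FPKM was 473 to 668 in knockout P21 hearts, against 265, 345 and 408 in wild-type P21 libraries 1, 2 and 3, with 0 of 7 markers at 0 in any library. At P21, 6 of 7 were higher in knockout by value and 0 were called by limma or voom, with 5 at an unadjusted p under 0.05 in limma. Red cell markers summed to 7036 to 14589 FPKM in knockout P21 hearts, against 9863 to 41977 FPKM in wild-type P21 hearts, where library 2 was the highest. Macrophage markers summed to 96.3 to 185 FPKM in knockout P21 hearts, against 112 to 291 FPKM in wild-type P21 hearts, again with library 2 the highest. Endothelial markers summed to 229 to 270 FPKM in knockout P21 hearts, against 414, 292 and 290 in wild-type P21 libraries 1, 2 and 3. By value 6 of 7 were lower in knockout at P21, and limma called 0. Lymphocyte and neutrophil markers summed to 6.24 to 10.2 FPKM in knockout P21 hearts. In wild-type P21 libraries 1, 2 and 3 they summed to 21.5, 31.2 and 7.16 FPKM. Only the fibroblast and endothelial sums did not overlap between the genotypes. The part of these cell types in the differences of Ccnd1, Cdkn1a and Cdkn1b was not tested.

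At P1, limma called 0 of 10 members, as it did 0.0% of all genes, 0 had an unadjusted p under 0.05, as had 0.606% of all genes, and voom called 0. The genotypes overlapped for all 10, while 7.96% of all genes had genotypes without overlap. Differences ran from -0.15 for Cdkn1b to 0.34 for Cdkn1a, and all 10 were smaller than their standard errors. The 95% intervals reached from -1.27 (Ccnd1) to 1.48 (Cdkn1a), and the narrowest, that of Ccnd3, ran from -0.31 to 0.40. Differences inside a member's own interval were not excluded by these libraries. These errors and intervals use 1 spread pooled over the 4 groups, so the spread of the wild-type P21 libraries enters them. With only the P1 groups fitted, 431 genes in place of 82 had an unadjusted p under 0.05, and 0 members were called.

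Whether the knockout effect at P21 differed from that at P1 was tested directly. Limma called 0 of 10 members, 0.0% of all genes, and voom called 0, while 1 member had an unadjusted p under 0.05, as had 6.94% of all genes. That was Ccnd1, at 1.84 (SE 0.81, adjusted p = 0.687). Cdkn1a had -1.59 (SE 0.74), Cdkn1b 0.77 (SE 0.59), Ccnd2 0.55 (SE 0.42) and Cdk6 0.32 (SE 0.29), and the other 5 were within their standard errors. Without wild-type P21 library 3 the Ccnd1 value was 2.69 and was called (adjusted p = 0.020), and without libraries 1 and 2 it was 0.14. The same values say how the age change differs between the genotypes: Ccnd1, Cdkn1a and Cdkn1b were called with age in wild type and not in knockout, and the test of that difference did not pass. Of the 47 tested genes in the 7 lists around the cyclins, limma and voom called 0 by genotype at either age. In limma 5 of them had an unadjusted p under 0.05 at P21, where 13.8% of all genes did, and 0 at P1, where 0.606% did.

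**Figure D5:**
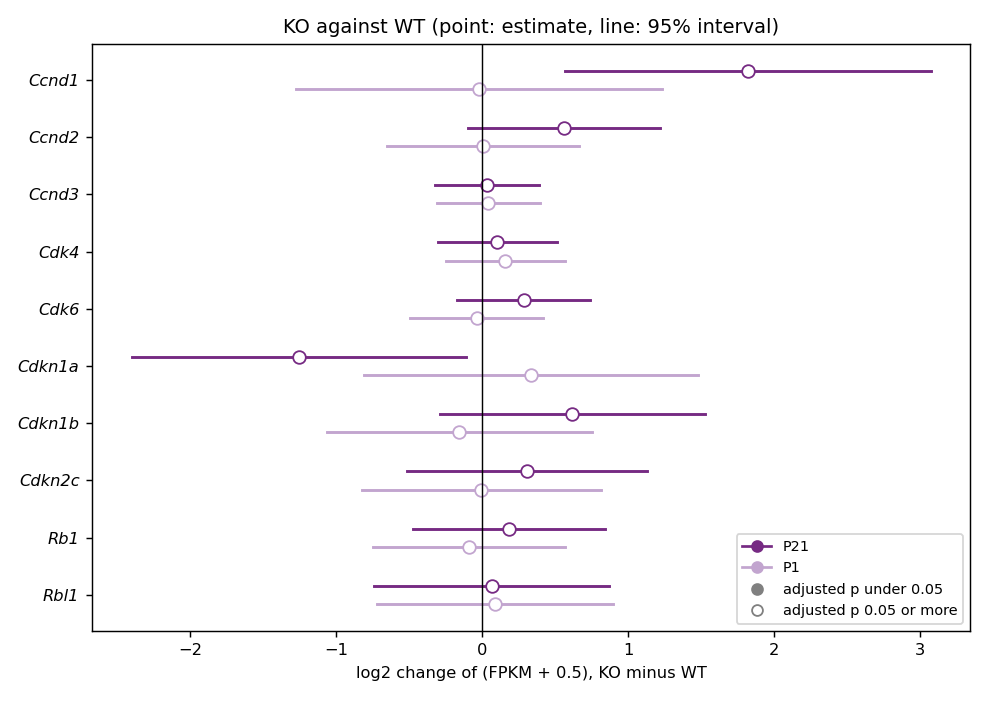
Log2 difference of FPKM + 0.5, knockout minus wild type, at P21 (dark, upper of each pair) and at P1 (light, lower), with 95% intervals from limma. All points are open because 0 of 10 members passed an adjusted p of 0.05; the intervals of Ccnd1 and Cdkn1a at P21 do not reach 0.

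The genes with the profiles most like each member were found by the root mean square difference of centred log2 values over the 12 libraries, which share age groups and depth. For Ccnd1 they were Tmod1 (0.37) and Ckap4 (0.37), where the median over all genes was 1.19. Ccnd2 was most like Spats2 (0.17) and Adam19 (0.19), and Ccnd3 most like Pafah1b2 (0.12) and Miga1 (0.13). Cdk4 was nearest to Orc6 (0.13) and Wdr82 (0.14), and Cdk6 to Cmtm4 (0.10) and Fam168b (0.11). For the inhibitors the nearest were Gsta3 (0.27) and Ramp2 (0.27) for Cdkn1a, Dok1 (0.18) and Pip5k1c (0.20) for Cdkn1b, and Pif1 (0.19) and Pask (0.23) for Cdkn2c. Rb1 was nearest to Senp2 (0.12) and Dmtf1 (0.15), and Rbl1 to Hells (0.17) and Parpbp (0.18). The median over all genes was between 0.54 and 1.03 for the 9 members other than Ccnd1.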

How the data were processed

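The authors deposited 1 table of FPKM values. The submitters' processing notes list TopHat2 2.0.13, featureCounts, Subread, edgeR and FastQC, along with 3 genome builds whose use is not stated. Table positions are printed unchanged, with their build not given in the sources available; 0 of the 10 members share a start with the GRCm38 annotation. Strand use in counting is likewise not given, so reads of overlapping or antisense genes could not be separated. Per the labels' protocols, RNA came from the miRNeasy micro kit and libraries from the Ovation Ultralow V2 kit.

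FPKM times gene length gave whole reads, within 0.05, for 100% of nonzero values. It also showed a scaling factor per library in the authors' values, of 0.605 to 0.944 at P21 and of 1.14 to 1.17 at P1. Genes reaching an FPKM of 1 in 3 or more libraries were tested with limma 3.58.1 in R 4.3.3 on log2(FPKM + 0.5), with 1 mean per group over 12 libraries, a trend and robust moderation. Groups came from sample titles. Libraries within a group differed, with correlations across genes of at most 0.982, so none was a copy of another. Each was counted once, although these correlations do not show that the libraries came from separate animals. Named genes were the 10 members, Csrp3, up to 3 called genes with the largest change per pathway list and age comparison, and the 2 nearest profiles per member. Members and lists were chosen with earlier results of these data known. Alternatives changed the pseudocount, filter, scale, model options, replicate block and libraries, and used voom on recovered reads.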

Additional observations from a re-analysis of the deposited data

How the results depend on the processing

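Over 23 alternatives per comparison, Ccnd2, Ccnd3, Cdk4 and Cdk6 were called lower at P21 in all 23 in both genotypes, and Rbl1 in 23 in knockout and 22 in wild type. When libraries 1 and 2 of wild-type P21 were omitted, 5 members were called with age in wild type in place of 9; fewer samples were used and the cause was not tested further. Ccnd2 and Cdk6 then turned to -0.088 and -0.17 for knockout against wild type at P21, and to -0.096 and -0.13 for the P21 minus P1 difference in knockout effect. With 1 library left out, 0 to 2 members were called for knockout against wild type at P21 and 0 to 1 for the difference of the knockout effects, the higher counts without wild-type P21 library 3. Rb1 had no firm direction with age: in wild type it was 0.034 with voom, 0.084 with library weights, 0.31 without wild-type P21 libraries 1 and 2, and -0.31 to 0.39 with 1 library left out, and in knockout it was -0.35 under TPM and -0.19 after rescaling without mitochondrial genes and the top 20 genes. Cdkn1a in knockout was -0.31 and -0.13 under the same rescalings. The causes were not tested. Over all genes, calls ranged from 2065 to 6773 for age in knockout (3388 as reported), 2976 to 9580 for age in wild type (6077), 0 to 1801 for genotype at P21 (9), 0 to 3 at P1 (0) and 0 to 300 for the difference (0). Those for age in knockout were 2218 without knockout P21 library 1 and 2065 and 2258 without knockout P1 libraries 2 and 3, and those for genotype at P21 were 14, 4 and 1801 without wild-type P21 library 1, 2 and 3. Cdkn1a in wild type lost its call in 3 alternatives, Cdkn1b in wild type in 7 and Cdkn2c in knockout in 12. Replicate numbers were shared by the groups, but same-numbered libraries did not deviate together throughout: correlations over 18 pairs were -0.30 to 0.49, with 6 over 0.1. The highest were between the genotypes at P21, at 0.49 for library 2 and 0.35 for library 3, against 0.026 for library 1. What these libraries share was not tested. With the replicate block, 5 members were called with age in knockout, where Cdkn2c was lost (adjusted p = 0.063), and 9 in wild type, and 0 by genotype. Depth limits Rbl1 most, with as few as 10 reads in a library.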
